A study of Mus musculus with 17 samples.

Results

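Genes of the MHC class I presentation pathway were followed in germinal centre (GC) B cells from lymph nodes of mice, sequenced as single cells with and without a pulse of T cell help. They were 10 genes chosen by name and role in the pathway, with no threshold on measured values. Earlier results of these data were known when they were chosen. Counts of members beside shares of all genes therefore describe the data and carry no test. All 10 were found among the 21848 genes of the count tables. Class I molecules display peptides from inside a cell to CD8 T cells. A heavy chain pairs with beta-2-microglobulin, receives a peptide that the TAP transporter moves into the endoplasmic reticulum, and travels to the surface. In B cells the pathway is always on, and it is raised by interferons and by NLRC5, a nuclear protein that is brought to class I promoters. The genes were the classical heavy chains H2-K1 and H2-D1, the non-classical heavy chains H2-Q6 and H2-Q7 of the Qa-2 family and H2-T22, the light chain B2m, the transporter subunits Tap1 and Tap2, Tapbp (tapasin, which holds an empty heavy chain at the transporter) and Nlrc5.

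In the time course, CD45.1/1 recipients primed with ovalbumin (OVA) received B1-8hi B cells from CD45.2/2 donors, a minority of which carried DEC-205 while the rest were Ly75-/-, and were immunized in the footpad with NP-OVA. The donor cells carried the Igh B1-8hi allele and, where DEC-205 was present, tetO-H2B-mCherry with Vav-tTA, a promoter active in blood cells. A legend of the study names DEC-205+ GC B cells at these times, but the labels give no such gate, and the share of sequenced cells able to bind the antibody was not analysed here. At 7 days the treated mice received anti-DEC-OVA, an antibody that delivers OVA to B cells with DEC-205 and so lets them draw strong help from T follicular helper cells. The groups were 9 mice at 0 h (Day7), 6 untreated and 9 treated mice at 48 h (Day9 and Day9DEC), and 8 untreated and 7 treated mice at 72 h (Day10 and Day10DEC). They came from a larger experiment with 25 mice and a smaller one with 14, each pooled into 1 library that held all 5 groups. A second data set held 7 mice with GC B cells carrying a Rosa26 DHB-tdTomato reporter of CDK2 activity, some with H2B-GFP, 72 h after anti-DEC-OVA. These were all from treated mice and were sorted by image into cells with cytoplasmic reporter (C, CDK2-high) and nuclear reporter (N, CDK2-low), 1 library each, so that population and library cannot be told apart. GC B cells were gated by B220, CD38 and Fas. Mice of both sexes on a C57BL/6 background were used, and the 2 populations of a mouse are paired.

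After filtering, 13625, 10073, 7448 and 4385 cells were kept in the larger, smaller, C and N libraries. Sums per mouse ranged from 1984426 to 13373185 unique molecular identifiers (UMIs, counted mRNA molecules) in the time course, and from 3988733 to 20394909 in the sorted populations. All 8 GC B cell markers were detected in every group, and their summed level ranged from 2421 to 4113 CPM (a gene's UMIs scaled to the same total in every mouse, without the normalization factors of the edgeR fits). The list includes Mki67, a gene of dividing cells, and no sum without it was made. The immunoglobulin chain pairing of the B1-8hi donor cells was found in 67.7% of kept cells of the larger experiment and 43.4% of the smaller one, and cells without it were kept. Libraries shared between 6 and 94 cell barcodes. In the smaller experiment, 1 mouse at 0 h stood apart with 281 CPM of myeloid and 2550 CPM of plasma cell markers, and leaving it out changed no count of members called in any comparison.

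The 5 heavy chains resemble each other, and UMIs of near-identical genes may be exchanged between them. Of the 50-base stretches in the annotated transcript, 40.2% of those of H2-Q7 and 33.1% of those of H2-Q6 also occurred in another gene. In the first 500 bases, which a 5′ library reads, the shares were 39.0% for H2-Q7, mainly with H2-Q5 and H2-T5, and 20.4% for H2-Q6, mainly with H2-Q5. H2-Q7 shared 9.76% of those stretches with H2-Q6, and H2-Q6 shared 9.31% with H2-Q7. For H2-T22, 38.4% of those stretches were shared with H2-T10. H2-K1 shared 4.21% there and H2-D1, B2m, Tap1, Tap2 and Nlrc5 shared none, whereas Tapbp shared 5.99% with the neighbouring Zbtb22. Values of H2-Q6, H2-Q7 and H2-T22 are therefore uncertain as to which family member they count. On GRCm39, B2m lies on chromosome 2 (chr2:121977957-121983594) and Nlrc5 on chromosome 8 (chr8:95160984-95253900). The others lie on chromosome 17 between Tapbp (chr17:34134873-34148267) and H2-T22 (chr17:36348020-36353650), with Tap1 and Tap2 as neighbours and H2-Q6 directly before H2-Q7.

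The promoters of the heavy chains are shown because these genes moved together and because they differ in the letters that interferon- and NF-kB-responsive factors can read. The stretches are from RefSeq on GRCm38.p6, an earlier build than that of the counts, are matched by symbol and end upstream of the transcription start. Capitals mark the NF-kB-type motif (the first capitals in the H2-K1 line), the interferon-response motif TTTCNNTTC or its longer form that ends in TTTC (the second capitals in the H2-T22 line), TGACG (the X2 type of class I and II promoters) and CCAAT or its reverse ATTGG, searched on both strands.
H2-K1: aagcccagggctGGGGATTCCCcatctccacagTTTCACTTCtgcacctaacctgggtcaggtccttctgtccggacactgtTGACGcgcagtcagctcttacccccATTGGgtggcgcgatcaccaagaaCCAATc
H2-D1: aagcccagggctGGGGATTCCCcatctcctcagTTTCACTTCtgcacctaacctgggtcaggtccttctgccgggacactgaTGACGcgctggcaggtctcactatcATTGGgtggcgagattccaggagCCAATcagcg
H2-Q6: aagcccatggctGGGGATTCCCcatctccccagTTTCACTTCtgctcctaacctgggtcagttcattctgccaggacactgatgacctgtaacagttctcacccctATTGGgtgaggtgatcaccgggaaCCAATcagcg
H2-Q7: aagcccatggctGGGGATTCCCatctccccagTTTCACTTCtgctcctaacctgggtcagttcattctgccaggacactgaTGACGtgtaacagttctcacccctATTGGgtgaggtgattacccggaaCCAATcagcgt
H2-T22: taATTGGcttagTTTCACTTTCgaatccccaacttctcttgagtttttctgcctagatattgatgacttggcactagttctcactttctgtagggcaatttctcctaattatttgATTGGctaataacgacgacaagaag

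These stretches lie at chr17:34000334-34000470 (minus strand), chr17:35262911-35263050 (plus), chr17:35424665-35424804 (plus), chr17:35439010-35439149 (plus) and chr17:36042806-36042945 (minus) in the order printed. H2-K1, H2-D1, H2-Q6 and H2-Q7 hold the NF-kB-type motif followed by TTTCNNTTC, and H2-T22 holds neither but has the longer interferon-response form. TGACG is in the printed stretches of H2-K1, H2-D1 and H2-Q7 and not in those of H2-Q6 and H2-T22. H2-T22 has a match past its printed stretch, at base -18 from the transcription start, and H2-Q6 has 0 within 250 bases upstream. Among 32851 promoters in the table, 0.0852% hold the NF-kB-type motif within 250 bases upstream, 6.31% TTTCNNTTC, 2.98% its longer form, 17.8% TGACG and 33.8% CCAAT. Of the other members, B2m holds the longer interferon-response form, TGACG and CCAAT, Tap1 TGACG and CCAAT, and Tapbp CCAAT, while Tap2 and Nlrc5 were not matched. A match describes the letters and is not evidence of a bound site.

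To ask how class I expression moved during the burst of division that follows anti-DEC-OVA, treated and untreated mice were compared at 48 h. Heavy chains, Tap2 and tapasin took a smaller share of the transcriptome in the treated mice. H2-K1 lay at 508 to 692 CPM (median 628) in the 6 treated mice of the larger experiment and at 709 to 814 (median 774) in the 4 untreated ones. In the smaller experiment it lay at 413 to 466 CPM in 3 treated and at 633 and 725 in 2 untreated mice. In CPM the groups did not overlap within an experiment. With the normalization factors of the edgeR fit they overlapped in the larger one, at 544 to 742 in treated and 734 to 833 in untreated mice. By edgeR's quasi-likelihood test H2-K1 fell by 0.36 ± 0.09 on the log2 scale (SE; adjusted p = 0.000839), or to 0.780 of the untreated level. A gene is called when its Benjamini-Hochberg adjusted p, over all 10220 genes tested, is below 0.05.

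H2-Q6 and H2-Q7 had the largest falls among the members. H2-Q7 ranged from 24.9 to 45.4 CPM (median 32.0) in treated and from 42.4 to 52.9 (median 49.8) in untreated mice of the larger experiment, and from 16.2 to 22.2 against 43.5 and 59.1 in the smaller one. The ranges touch in the larger experiment, where the highest treated mouse passes the lowest untreated one, and lie apart in the smaller. The log2 change was -0.74 ± 0.16 for H2-Q7 (adjusted p = 0.000212) and -0.78 ± 0.14 for H2-Q6 (adjusted p = 1.68e-05). H2-D1, the other classical heavy chain, fell by 0.21 ± 0.07 (adjusted p = 0.00726) and H2-T22 by 0.30 ± 0.06 (adjusted p = 3.07e-05), both by edgeR.

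Tapasin and Tap2 fell as well, and the light chain was not called. Tapbp ranged from 49.9 to 69.6 CPM (median 57.9) in treated and from 75.6 to 83.2 (median 78.5) in untreated mice of the larger experiment, and from 38.6 to 42.3 against 67.8 and 79.0 in the smaller one. No treated mouse reached an untreated one of the same experiment, with or without the factors. The change was -0.50 ± 0.07 log2 (adjusted p = 4.61e-07, edgeR). Tap2 fell by 0.27 ± 0.06 (adjusted p = 0.000136) and Nlrc5 by 0.49 ± 0.20 (adjusted p = 0.0405), while Tap1 changed by -0.18 ± 0.10 (adjusted p = 0.131). B2m lay at 783 to 1062 CPM (median 960) against 832 to 1034 (median 928) in the larger and at 809 to 881 against 848 and 1041 in the smaller experiment. These ranges overlap, and the difference was 0.01 ± 0.09 log2 (adjusted p = 0.930). In all, 8 of 10 members were called lower and 0 higher, where 21.1% of all genes tested were called lower and 26.3% higher. The median log2 change of the members was -0.33 and that of all genes 0.01. Without the experiment term 4 of the 8 calls were lost. The call of Nlrc5 was lost with DESeq2 (adjusted p = 0.0865), in cells with the donor pairing (0.0869) and in the larger experiment alone (-0.16, adjusted p = 0.543), and that of H2-D1 in the larger experiment alone (adjusted p = 0.0518, edgeR).

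**Figure D1:**
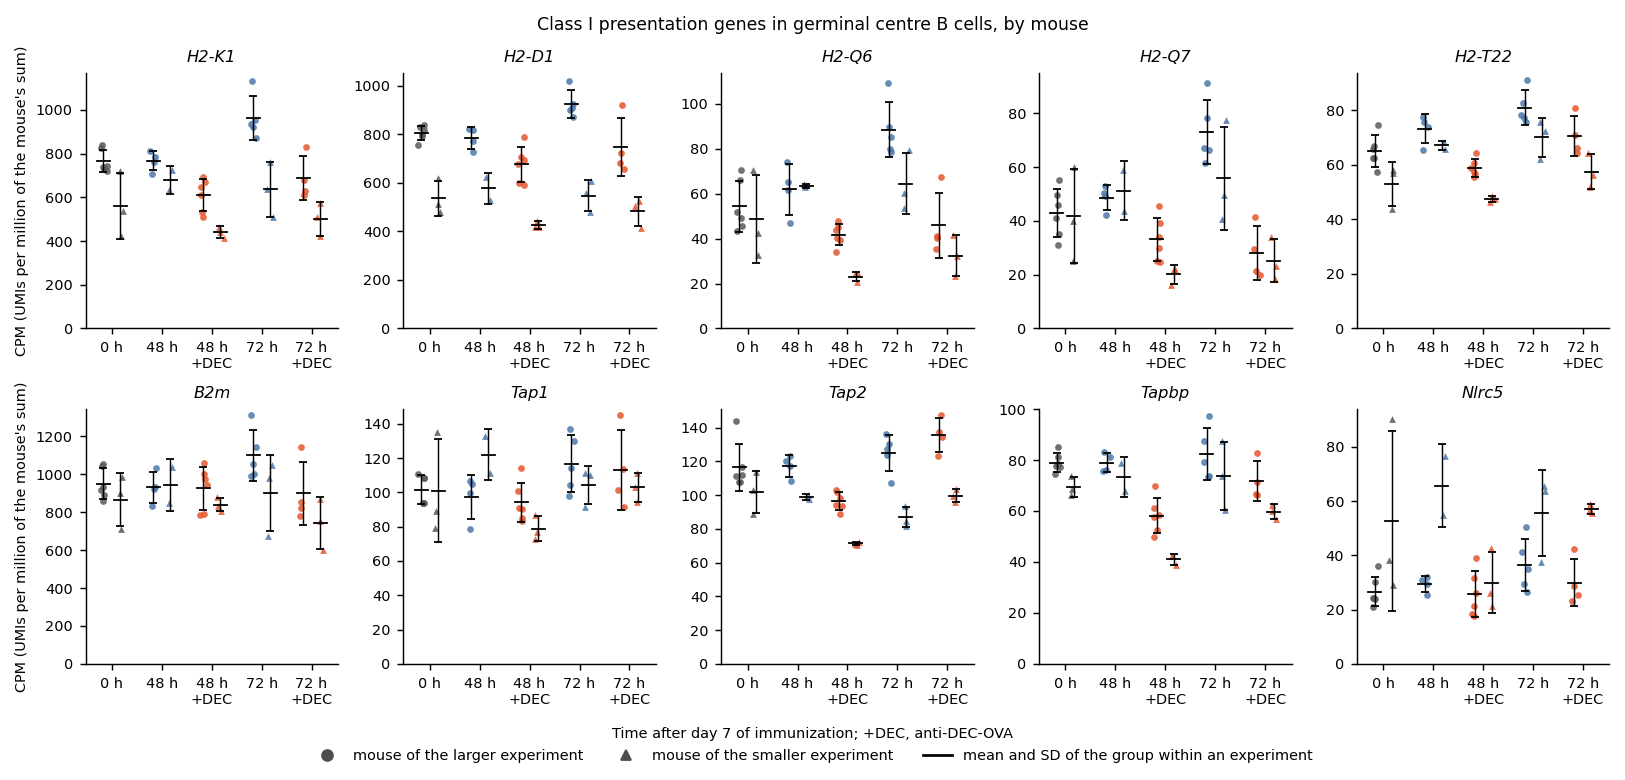
CPM of the 10 genes (vertical axes) in each mouse by time and treatment (horizontal axis; +DEC, anti-DEC-OVA), with circles for the larger and triangles for the smaller experiment and black bars for mean and SD. At 48 h, treated mice lie below untreated ones of the same experiment for Tapbp, overlap them in the larger experiment for H2-Q6 and H2-Q7, and overlap them in both for B2m.

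Of other genes of the pathway at 48 h, 5 of 7 tested further class I heavy chains fell and 0 rose (median -0.37 log2). They included H2-T23 (Qa-1), at -0.53 ± 0.06 (adjusted p = 1.41e-08), H2-T24 at -0.46 ± 0.16, H2-T10 at -0.41 ± 0.11 and H2-M3, which presents formylated peptides, at -0.37 ± 0.06. Of 14 genes of peptide supply and loading, 4 rose and 2 fell (median -0.06). Ide, the insulin-degrading enzyme, rose by 1.35 ± 0.12 and the peptidase Thop1 by 0.53 ± 0.15, while the peptide editor Tapbpl fell by 0.41 ± 0.10 and the immunoproteasome subunit Psmb10 by 0.17 ± 0.07.

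Regulators of the pathway went down more often than up, with 12 of 23 lower and 1 higher (median -0.21). Among them were Irf1, an interferon-induced activator of class I genes (-0.65 ± 0.25, adjusted p = 0.0299), the interferon-gamma receptor subunit Ifngr2 (-0.59 ± 0.08), the kinase Jak2 (-0.44 ± 0.06) and Ciita, the class II relative of Nlrc5 (-0.58 ± 0.05, adjusted p = 2.05e-11). All 9 MHC class II genes tested fell (median -0.44), from H2-Oa (-0.86 ± 0.09) and H2-Ob (-0.57 ± 0.06), the chains of a class II loading inhibitor, to the invariant chain Cd74 (-0.49 ± 0.04) and H2-Eb1 (-0.45 ± 0.05). Few interferon-stimulated genes were called, with 1 higher (Ifi27) and 1 lower (Gbp3) of 18 (median 0.05). All calls are from the same edgeR fit with the background shares given above.

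Other features of the samples moved with the treated group at 48 h. Cells in G1 made up 15.3% to 24.2% of cells in treated and 44.0% to 56.9% in untreated mice. The summed level of 8 naive or memory B cell markers was 156 to 218 CPM against 373 to 463 in the larger and 115 to 137 against 269 and 302 in the smaller experiment, with every marker detected in each group. GC B cell markers summed to 3453 to 3657 CPM against 2985 to 3107 in the larger and to 3739 to 4109 against 3574 and 3582 in the smaller experiment. The T cell list, with 6 of its genes detected, was at 47.3 to 65.6 CPM against 67.6 to 106. The part of cell makeup in the class I values was tested only by phase.

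Because CPM is a share, class I UMIs were also counted per cell. Treated cells at 48 h held more UMIs in all, 15843 against 8911 on average in the larger and 13572 against 7439 in the smaller experiment. Heavy chain UMIs per cell (5 members summed, mean over the mice) were 22.5 against 15.4 and 13.0 against 10.7. The pooled difference of 5.48 UMIs was positive in both experiments (exact two-sided permutation within experiment, p = 0.000476, the smallest it can give; adjusted p = 0.00143 over 18 tests). B2m rose by 5.72 UMIs per cell (same exact test, adjusted p = 0.00143), with 14.7 against 8.26 and 11.4 against 7.04. At 48 h more heavy chain UMIs were thus counted in a treated cell while they formed a smaller share of its total. In cells with the donor pairing of chains the heavy chain difference was 6.85 UMIs in the larger and -0.58 in the smaller experiment (pooled 4.38, adjusted p = 0.0300, exact permutation).

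**Figure D2:**
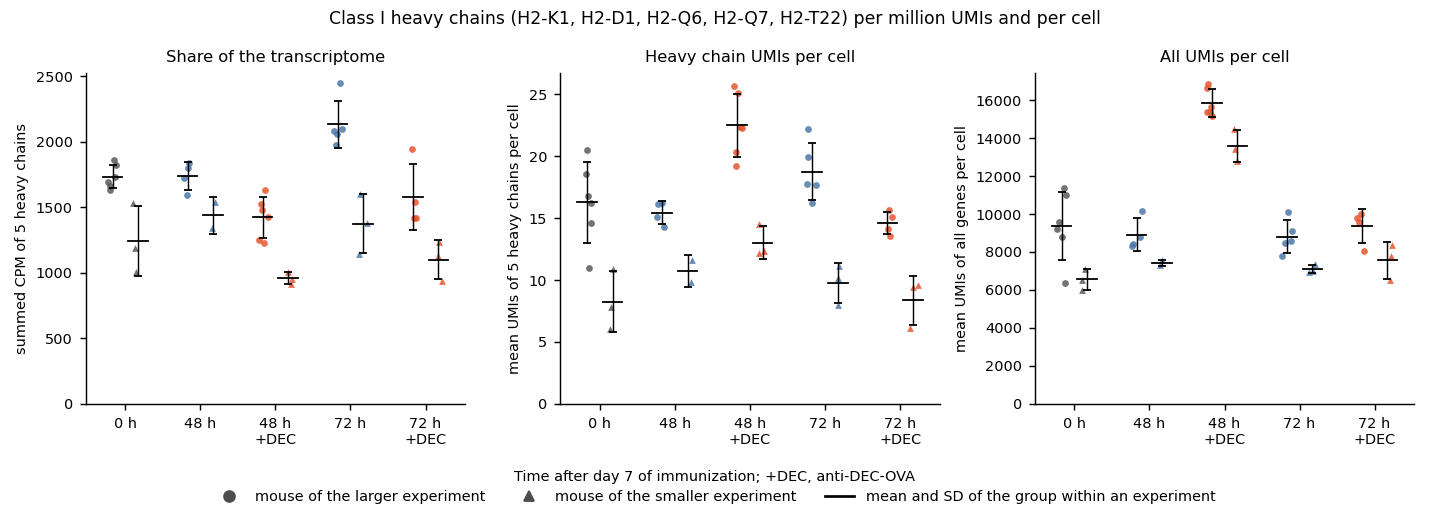
Summed CPM of the 5 heavy chains, their mean UMIs per cell and the mean of all UMIs per cell (3 vertical axes) for each mouse by time and treatment, with mean and SD within an experiment in black. Of the 5 groups of either experiment, treated mice at 48 h have the lowest mean share and the highest means of both counts per cell.

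At 72 h the heavy chains were still lower in treated mice, and neither transporter subunit was called. H2-K1 lay at 609 to 831 CPM (median 653) in 4 treated and at 871 to 1132 (median 937) in 5 untreated mice of the larger experiment, and at 421 to 572 against 508 to 761 in the smaller one. The groups overlapped in the smaller experiment but not in the larger. The log2 change was -0.44 ± 0.09 (adjusted p = 0.000884, edgeR). H2-Q7 ranged from 19.9 to 41.5 CPM (median 25.5) against 61.7 to 91.2 (median 67.2), and from 18.3 to 33.9 against 40.8 to 77.5. It lay apart in both experiments and fell by 1.29 ± 0.18 log2 to 0.409 of the untreated level (adjusted p = 2.80e-06, edgeR).

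H2-Q6 fell by 0.95 ± 0.15 (adjusted p = 3.59e-05), H2-D1 by 0.27 ± 0.07 (adjusted p = 0.00659) and H2-T22 by 0.25 ± 0.06 (adjusted p = 0.00535). B2m, not called at 48 h, was called at 72 h, with 781 to 1146 CPM against 989 to 1311 in the larger and 601 to 871 against 676 to 1048 in the smaller experiment. These ranges overlap in both, and the change was -0.30 ± 0.09 log2 (adjusted p = 0.0329). Tapbp fell by 0.24 ± 0.08 (adjusted p = 0.0370). Tap1 (-0.04 ± 0.10, adjusted p = 0.885), Tap2 (0.14 ± 0.06, adjusted p = 0.143) and Nlrc5 (-0.14 ± 0.21, adjusted p = 0.771) were not called. In all, 7 of 10 members were lower and 0 higher by edgeR, beside 3.88% and 4.67% of all genes (median -0.26 against 0.00 for all genes). Without the experiment term 5 of the 7 calls were lost. In the fit of the compared groups alone the calls of B2m (adjusted p = 0.0648) and Tapbp (0.0693) were lost. In cells with the donor pairing Tapbp was not called (-0.23, adjusted p = 0.0802) and Tap2 was called higher (0.20, adjusted p = 0.0342, edgeR). The counts were 4 members in the larger experiment alone, without H2-T22, B2m and Tapbp, and 0 in the smaller one alone, where 22 genes were called in all. The count of 4 was not set against the share of all genes in its fit.

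Marker levels moved with treatment at 72 h too. Naive or memory B cell markers summed to 270 to 349 CPM in treated and 372 to 506 in untreated mice of the larger experiment, without overlap, and to 212 to 294 against 256 to 389 in the smaller one, with overlap. T cell markers were at 76.7 to 92.9 against 77.5 to 101 CPM and at 67.8 to 80.5 against 91.7 to 95.3. Cells in G1 made up 49.2% to 56.6% against 39.1% to 56.1% and 33.6% to 46.3% against 40.2% to 47.2%, with overlap in both. The part of the markers in the class I values was not tested.

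Around the members at 72 h, 2 of 7 further heavy chains fell, H2-T10 (-0.56 ± 0.12) and H2-T23 (-0.36 ± 0.07). Of peptide supply genes 2 of 14 rose, Ide (1.02 ± 0.14) and the immunoproteasome subunit Psmb8 (0.16 ± 0.03), and 0 fell. Of regulators, 3 of 23 fell and 0 rose. These were Ifnar2, a chain of the type I interferon receptor (-0.83 ± 0.15, adjusted p = 0.000172), Ifngr2 (-0.32 ± 0.09) and Nfkb1 (-0.19 ± 0.05). Class II genes were mostly not called, with 1 of 9 lower, H2-Oa (-0.43 ± 0.09). Of interferon-stimulated genes, 5 of 18 were lower and 0 higher (median -0.59), among them Ifit3 (-2.78 ± 0.88), Rtp4 (-2.54 ± 0.79), Gbp7 (-1.75 ± 0.54) and Usp18 (-1.73 ± 0.53).

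The interferon-stimulated genes varied widely between untreated mice at 72 h. Usp18, a protease induced by interferon, ranged from 2.46 to 14.7 CPM in untreated and from 1.05 to 5.09 in treated mice of the larger experiment, and from 2.72 to 25.4 against 1.58 to 2.20 in the smaller one. The sum of the 21 listed genes was 245 to 555 CPM against 211 to 398 and 158 to 564 against 194 to 214. Untreated mice thus reached higher values, and the groups overlapped. The part of this variation in the class I difference was not tested.

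Per cell, heavy chain UMIs at 72 h were lower after treatment, at 14.6 against 18.8 in the larger and 8.37 against 9.75 in the smaller experiment (difference -3.04, adjusted p = 0.0255, exact two-sided permutation). Taken as the median over cells, the difference was -1.81 (adjusted p = 0.103, exact permutation). B2m differed by -1.11 UMIs per cell (adjusted p = 0.190) and total UMIs by 513 (adjusted p = 0.302; both exact permutation tests). As the median over cells, total UMIs were higher by 983 in treated mice (adjusted p = 0.0276, exact permutation). Unlike at 48 h, share and count per cell thus pointed the same way for the heavy chains.

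The change of the treatment effect between the time points was tested itself, as the effect at 48 h minus that at 72 h. Tap2 was the 1 member of 10 called, at -0.41 ± 0.08 log2 (adjusted p = 0.000202, edgeR), where 13.0% of genes were called lower and 18.5% higher, so the share of members called was no larger than that of all genes. Its call was lost without the experiment term (-0.38, adjusted p = 0.177, edgeR) and in G1 cells (-0.01, adjusted p = 0.991). It was at 88.7 to 103 CPM in treated mice at 48 h and 123 to 147 at 72 h in the larger experiment, and at 70.7 to 72.3 and 95.9 to 104 in the smaller one. The untreated mice lay at 108 to 123 and 107 to 136, and at 97.8 to 100 and 82.0 to 93.5. Treated mice were thus below untreated ones at 48 h in both experiments and above them at 72 h in the smaller one, with overlap in the larger. B2m (0.31 ± 0.13, adjusted p = 0.0644), Tapbp (-0.25 ± 0.11, adjusted p = 0.0604) and H2-Q7 (0.55 ± 0.24, adjusted p = 0.0789) were not called. Beyond Tap2, 1 member more was called with DESeq2, RLE normalization, total-count scaling or the larger experiment alone. These counts were not set against the share of all genes in the same fits. All 9 class II genes were called lower in this contrast, as was Ciita (-0.54 ± 0.07), and of 18 interferon-stimulated genes 4 were higher and 0 lower. Further heavy chains had 0 of 7 called, peptide supply genes 2 higher and 1 lower of 14, and regulators 2 higher and 5 lower of 23. The 2 effects share no mice.

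Between the treated groups, 72 h minus 48 h, 3 of 10 members rose and 0 fell by edgeR (22.3% of genes higher and 26.8% lower). They were Tap2 (0.39 ± 0.06, adjusted p = 2.66e-07), Tapbp (0.28 ± 0.07, adjusted p = 0.00131) and H2-T22 (0.15 ± 0.06, adjusted p = 0.0235). The classical chains were not called, with H2-K1 at 0.08 ± 0.09 and H2-D1 at 0.05 ± 0.06 (adjusted p = 0.480 and 0.510). Nlrc5 changed by 0.41 ± 0.20 (adjusted p = 0.0927) and B2m by -0.19 ± 0.09 (adjusted p = 0.0674, both edgeR). Total-count scaling added 3 member calls and the fit of the compared groups alone added 2, neither set against the share of all genes in its fit. Without the experiment term 2 calls were lost. All 9 class II genes rose, as did 4 of 7 further heavy chains and 12 of 23 regulators, with 0, 0 and 3 lower. Peptide supply genes split 4 higher and 4 lower of 14, and interferon-stimulated genes 2 higher and 1 lower of 18. Per cell, heavy chain UMIs changed by -6.64, B2m by -6.10 and total UMIs by -6304 (each adjusted p = 0.00143, exact permutation within experiment, the smallest it can give before adjustment). These contrasts share the treated mice with those above.

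Untreated mice were compared over time as a background. By edgeR from 0 h to 48 h, 0 of 10 members were called, where 0.0587% of genes were called higher and 0.0685% lower, with 1 member at an unadjusted p under 0.05 and 1 called by DESeq2, H2-T22 in either case. H2-T22 had the smallest adjusted p of the members, at 0.23 ± 0.06 log2 (adjusted p = 0.135), with 57.2 to 74.6 CPM at 0 h and 65.6 to 77.5 at 48 h in the larger experiment. At 72 h against 0 h, 3 of 10 were higher and 0 lower (1.79% and 2.62% of genes). None of these 3 calls was kept without the experiment term, in the smaller experiment alone or in G2/M cells. H2-Q6 rose by 0.54 ± 0.13 (adjusted p = 0.0111), H2-Q7 by 0.57 ± 0.15 (adjusted p = 0.0187) and H2-T22 by 0.33 ± 0.06 (adjusted p = 0.000147), and H2-K1 changed by 0.26 ± 0.08 (adjusted p = 0.0591).

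H2-Q7 went from 30.9 to 55.2 CPM at 0 h to 61.7 to 91.2 at 72 h in the larger experiment without overlap, and from 25.2 to 60.1 to 40.8 to 77.5 in the smaller one with overlap. The untreated rise and the treated fall of H2-Q7 are set against the same 8 untreated mice at 72 h. Over the same interval H2-T10 rose by 0.41 ± 0.10 and H2-T23 by 0.21 ± 0.06, 2 of 7 further heavy chains. H2-Oa was 1 of 9 class II genes that rose (0.33 ± 0.09). Regulators, peptide supply and interferon-stimulated genes had 0 calls, the last with a median of 0.45 log2 over 18 genes. Per cell, neither heavy chains nor B2m passed the exact permutation test in untreated mice (adjusted p between 0.175 and 0.973).

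Since the cell cycle makeup differed with treatment at 48 h, each comparison was repeated in cells scored as G1, S or G2/M. Class I shares differ by phase. In untreated mice at 48 h in the larger experiment, the 5 heavy chains summed to 2050 to 2282 CPM in G1, 1334 to 1555 in S and 1425 to 1799 in G2/M. G1 lay above both other phases there without overlap. In the smaller experiment the values were 1552 and 2225 in G1, 1106 and 1210 in S and 1377 and 1452 in G2/M.

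**Figure D3:**
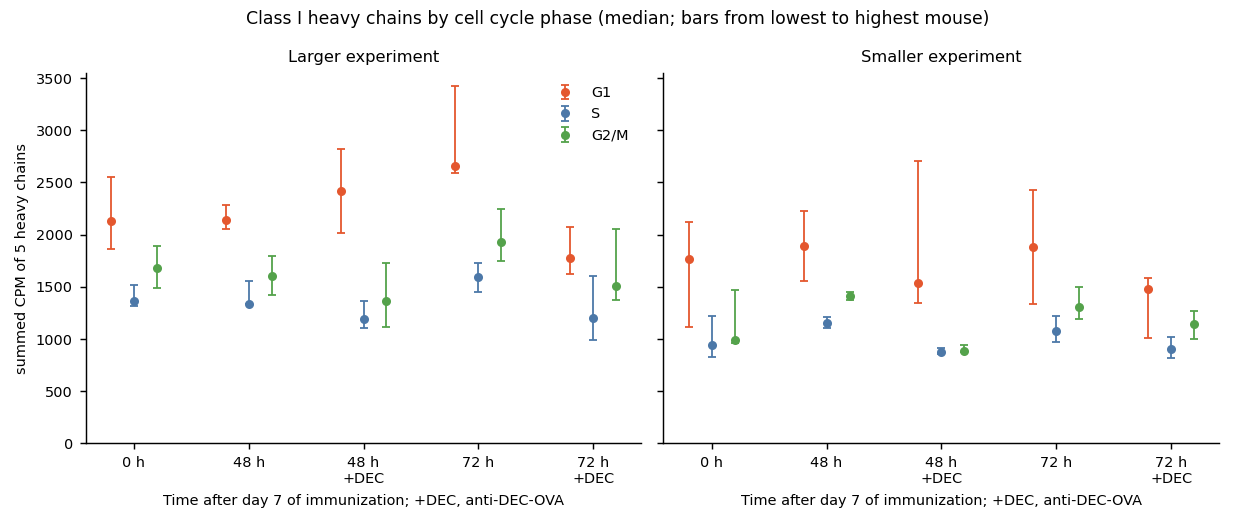
Summed CPM of the 5 heavy chains (vertical axis) in cells scored as G1, S or G2/M, by time and treatment (horizontal axis), with the median over mice as points and bars from the lowest to the highest mouse. G1 has the highest median in each group, and in the larger experiment the treated G1 median is 2415 at 48 h and 1772 at 72 h.

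In G1 cells alone, 0 of 10 members were called by edgeR at 48 h, beside 4.09% of 8802 genes called lower, and 2 (H2-T22 and B2m) had an unadjusted p under 0.05. H2-K1 was at 0.13 ± 0.14 and H2-D1 at 0.17 ± 0.10 log2, the opposite sign to all cells (adjusted p = 0.650 and 0.336), and B2m at 0.39 ± 0.15 (adjusted p = 0.0976, edgeR). The other 6 of the 8 members called in all cells, H2-T22 among them, lost the call without a turn of sign. The experiments differed here, with G1 medians of the heavy chain sum of 2415 treated against 2140 untreated in the larger and 1533 against 1888 in the smaller one, where a single treated mouse reached 2702. Each treated mouse gave 95 to 172 G1 cells. In S and G2/M cells, by contrast, 6 members each were called lower (6.26% and 7.99% of genes). H2-Q6 fell by 0.75 ± 0.14 in S and by 0.92 ± 0.15 in G2/M, H2-Q7 by 0.75 ± 0.15 and 0.86 ± 0.18, and Tapbp by 0.46 ± 0.09 and 0.46 ± 0.11.

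At 72 h the members had their largest counts of calls in G1, although differences between phases were not tested. There 7 members were called lower (4.95% of genes), against 4 in S (1.81%) and 2 in G2/M (1.55%). H2-K1 fell by 0.71 ± 0.14, H2-Q7 by 1.64 ± 0.23, H2-Q6 by 1.08 ± 0.16 and B2m by 0.53 ± 0.15 in G1. In G1 cells H2-Q7 was at 19.8 to 40.8 CPM in treated and 67.7 to 135 in untreated mice of the larger experiment, and at 15.3 to 34.3 against 36.2 to 113 in the smaller one, without overlap in either. H2-Q6 and H2-Q7 were called in all 3 phases at 72 h. In G2/M H2-K1 was at -0.27 ± 0.10 (adjusted p = 0.107) and B2m at -0.14 ± 0.10 (adjusted p = 0.541).

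The difference between the time points within G1 was tested too. There, 4 members had an effect that was higher at 48 h than at 72 h (2.12% of genes), namely H2-K1 (0.84 ± 0.20, adjusted p = 0.0119), H2-D1 (0.60 ± 0.14, adjusted p = 0.00890), H2-Q7 (1.64 ± 0.32, adjusted p = 0.00220) and B2m (0.93 ± 0.21, adjusted p = 0.00807). The same 4 fell from 48 h to 72 h in treated G1 cells (4.09% of genes lower), H2-Q7 by 1.11 ± 0.25 and B2m by 0.64 ± 0.15. H2-Q7 in G1 of treated mice went from 50.01 to 88.3 CPM at 48 h to 19.8 to 40.8 at 72 h in the larger experiment, without overlap, and from 31.7 to 76.0 to 15.3 to 34.3 in the smaller one, with slight overlap. Tap2 was not called in G1 (-0.01 ± 0.10, adjusted p = 0.991) and was called in S (-0.51 ± 0.12) and G2/M (-0.39 ± 0.11). Whether G1 at 48 h and at 72 h holds the same kinds of cells was not tested.

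**Figure D4:**
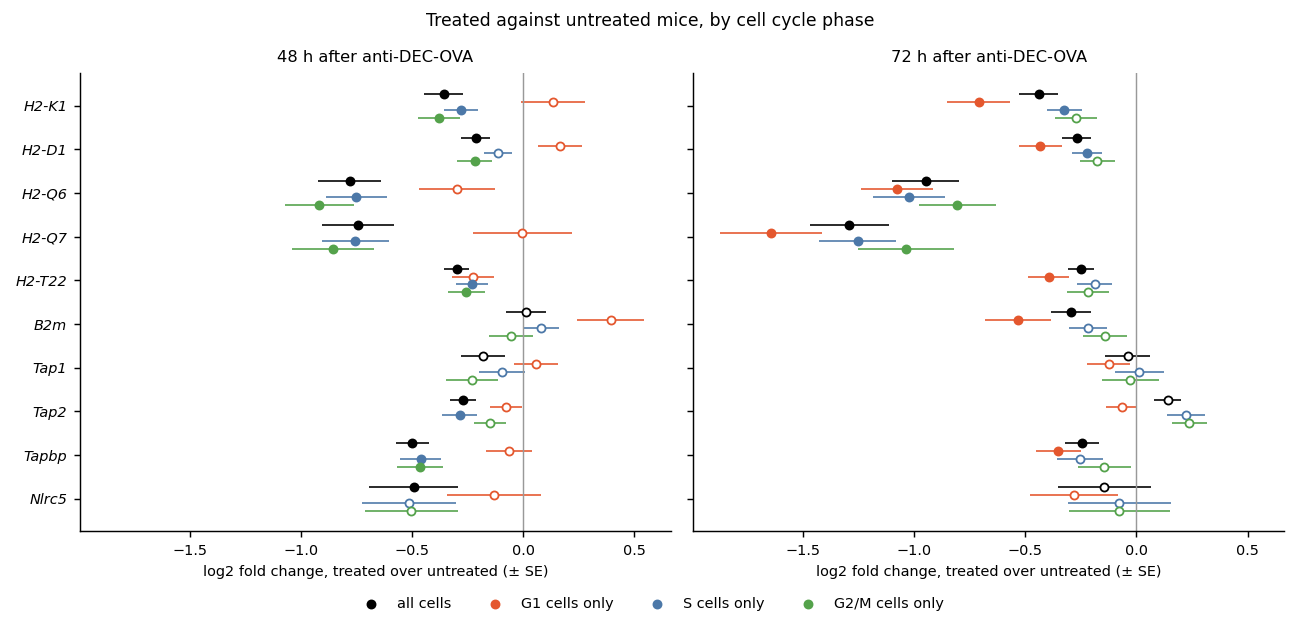
Log2 fold change of treated over untreated mice (horizontal axis, bars ± SE) for each gene (vertical axis) at 48 h and 72 h, in all cells and within phases, with filled points for genes called by edgeR. At 48 h no G1 point is filled, and at 72 h the G1 points of H2-K1, H2-D1, H2-Q6, H2-Q7, H2-T22, B2m and Tapbp are filled.

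Cells sorted by the CDK2 reporter, all from treated mice at 72 h, were compared within each mouse. The study made this comparison among cells with the expression pattern of the dark zone, the part of the GC where cells divide. Here all kept cells were used and no zone was assigned. In untreated mice of the study, cells of the other part, the light zone, mostly had nuclear reporter. The part of zone in the values below was not tested. CDK2-high cells had less of most members than CDK2-low cells of the same mouse. Tap2 was at 87.9 to 103 CPM (median 89.4) in C and 123 to 155 (median 146) in N. Tapbp was at 37.2 to 49.6 (median 45.1) and 63.7 to 82.2 (median 72.2), and Nlrc5 at 20.4 to 33.7 (median 26.0) and 34.5 to 57.1 (median 40.9). In CPM the populations did not overlap for these genes. With the factors Nlrc5 overlapped, at 22.4 to 36.4 in C and 32.4 to 53.0 in N, and Tap2 and Tapbp did not. With mice as blocks in edgeR, Tap2 fell by 0.43 ± 0.03 log2 (adjusted p = 2.50e-12), Tapbp by 0.50 ± 0.04 (adjusted p = 1.26e-10) and Nlrc5 by 0.49 ± 0.05 (adjusted p = 1.39e-09).

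H2-D1 was at 418 to 540 CPM (median 484) in C and 581 to 783 (median 701) in N, was lower in C in 7 of 7 mice and fell by 0.32 ± 0.02 (adjusted p = 4.44e-12). Its populations lay apart in CPM and overlapped with the factors, at 443 to 580 and 541 to 736. H2-K1 was at 399 to 528 against 496 to 682, which overlap between mice although it was lower in C in 7 of 7 mice (-0.17 ± 0.03, adjusted p = 1.75e-06). Tap1 fell by 0.22 ± 0.03 (adjusted p = 3.03e-06) and H2-T22 by 0.16 ± 0.04 (adjusted p = 0.000750). In all, 7 of 10 members were lower and 0 higher, beside 38.6% of 10120 genes lower and 36.5% higher (member median -0.19, all genes -0.02).

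B2m (-0.05 ± 0.03, adjusted p = 0.105), H2-Q6 (-0.05 ± 0.06, adjusted p = 0.436) and H2-Q7 (0.03 ± 0.08, adjusted p = 0.779) were not called. For B2m and H2-Q6 the call depended on the scaling. The normalization factors were 0.913 to 0.949 in C and 1.05 to 1.09 in N, and scaling by total counts alone moved the median of all genes by -0.20 log2. Under it B2m changed by -0.25 and H2-Q6 by -0.25, both called lower, and in CPM both were lower in C in 7 of 7 mice, against 4 of 7 with the factors. H2-Q7 was lower in 4 of 7 and higher in 3 mice in CPM and lower in 2 of 7 with the factors, and it was at -0.17 under total-count scaling (adjusted p = 0.0698, edgeR). B2m was also called when mouse 5 or mouse 7 was left out (-0.07 in either case, adjusted p = 0.0320 and 0.0245, edgeR).

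**Figure D5:**
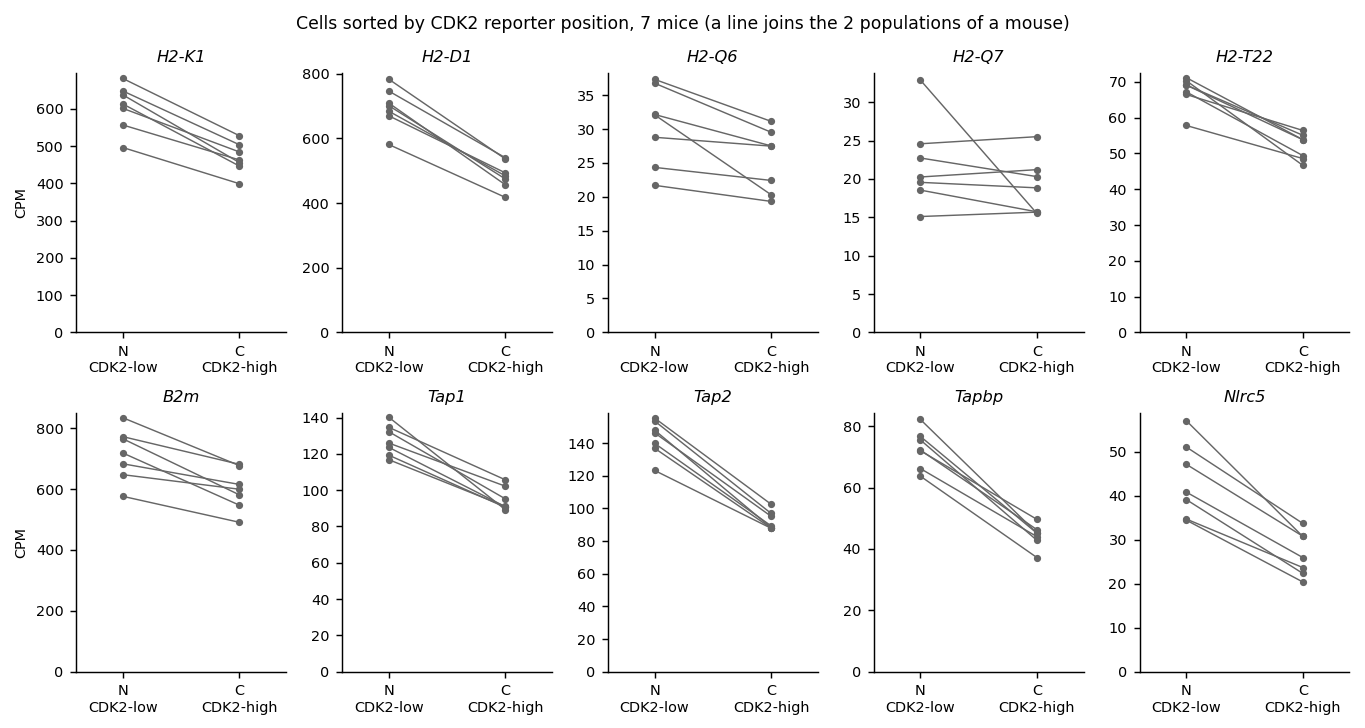
CPM of the 10 genes (vertical axes) in CDK2-low (N) and CDK2-high (C) cells, with a line for each of 7 mice. Without normalization factors, lines fall from N to C in 7 of 7 mice for all genes but H2-Q7, which falls in 4, and with them H2-Q6 and B2m fall in 4 and H2-Q7 in 2.

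Around the members in C against N, 5 of 7 further heavy chains fell and 0 rose, including H2-M5 (-1.38 ± 0.25), H2-T24 (-1.02 ± 0.08), Mr1, which presents microbial metabolites (-0.999 ± 0.197), and H2-T23 (-0.74 ± 0.03). Peptide supply split 5 higher and 6 lower of 14, with the immunoproteasome subunit Psmb9 at 0.46 ± 0.02, Thop1 at 0.43 ± 0.09, the chaperone Calr at -0.45 ± 0.03 and Tapbpl at -0.38 ± 0.06. Of 23 regulators 15 fell and 5 rose. Ezh2, the histone methyltransferase of dividing GC cells, rose by 1.58 ± 0.03 and the CCAAT-binding subunits Nfya and Nfyb by 0.73 ± 0.05 and 0.70 ± 0.04, while Ifngr2 fell by 0.74 ± 0.06. All 9 class II genes fell, with Cd74 at -0.56 ± 0.02 and H2-Oa at -0.79 ± 0.04, and 11 of 15 interferon-stimulated genes fell, with 0 higher.

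The populations also differed in phase, with 12.2% to 19.1% of C and 52.7% to 63.0% of N cells in G1. Naive or memory B cell markers summed to 121 to 202 CPM in C and 373 to 610 in N, and GC B cell markers to 3835 to 4113 in C and 2421 to 2638 in N, both without overlap. The GC list includes Mki67, so its sum is not a measure of cell type alone. T cell markers were at 44.1 to 66.8 CPM in C and 61.2 to 142 in N. The part of these markers in the class I values was not tested. Within G1, 6 members were still lower (31.0% of genes), among them Tap2 (-0.47 ± 0.06) and Nlrc5 (-0.52 ± 0.09), whereas B2m was higher by 0.20 ± 0.04 (adjusted p = 1.17e-05). In S 8 were lower (32.0%), Nlrc5 by 0.76 ± 0.08. In G2/M 3 were lower (24.8%), H2-K1, H2-D1 (-0.53 ± 0.05) and B2m (-0.44 ± 0.05), and Nlrc5 was higher by 0.43 ± 0.13 (adjusted p = 0.00530). B2m and Nlrc5 thus had opposite signs in different phases, each called on both sides, although the difference between phases was not tested. The G2/M values rest on 25 to 119 N cells per mouse (222 to 764 in C). Per cell, heavy chain UMIs were 11.6 in C and 19.1 in N and B2m UMIs 6.59 and 9.62, lower in 7 of 7 mice (exact sign-flip permutation, p = 0.0156, the smallest possible; adjusted p = 0.0281). Total UMIs per cell were lower by 2436 in C. The populations were separate libraries, so differences in counts per cell cannot be told apart from differences between libraries.

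The hashtags offered a view of the surface, since their antibodies bind CD45 and MHC-I, although the 2 targets cannot be separated. Hashtag UMIs per cell at 48 h were 1862 treated against 3200 untreated in the larger and 1492 against 1785 in the smaller experiment (difference -989, adjusted p = 0.0381 over 5 tests, exact permutation). Untreated mice were higher at 48 h than at 0 h by 852 (adjusted p = 0.0381, exact permutation), with 3200 against 1920 in the larger and 1785 against 1787 in the smaller experiment. Treated and untreated mice at 48 h shared 0 hashtags, so that hashtag and treatment cannot be told apart. Untreated mice at 48 h and at 0 h shared 4 hashtags in the larger and 0 in the smaller experiment. Scaled to the mean of each hashtag, their difference was 0.03 and no longer called (adjusted p = 0.765, exact permutation). The compared mice themselves enter those means, so the scaling removes part of any difference.

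Across the 39 time-course mice, the members varied together. Log2 CPM centred within experiment correlated positively in 44 of 45 pairs of members. The share of positive pairs among other genes was not measured. Each member against the mean of the others gave Pearson's r from 0.42 for Tap2 to 0.95 for H2-K1, with 0.64 for B2m and 0.72 for Nlrc5. Among the genes outside the members whose pattern was most like their mean, of 6768 ranked, were H2-Q5 (r = 0.88), H2-Q4 (0.86), Phf11b (0.82) and Pkib (0.80). H2-Q5 shares sequence with H2-Q6 and H2-Q7, and H2-Q4 shares 12.04% of the 50-base stretches of H2-Q6 and 3.38% of those of H2-K1. In the first 500 bases the shares of H2-Q4 were 0.0% of H2-Q6 and 3.77% of H2-K1. The 5 least alike were Myl4 (-0.79), Mbd2 (-0.75), Bptf (-0.74), Rell1 (-0.74) and Capza1 (-0.73). The mice share libraries, treatment and phase makeup, so these values describe the data and carry no test.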

How the data were processed

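The deposited values are counts of UMIs, not normalized, for each gene or hashtag in each cell. The authors made them with Cell Ranger (6.0.1 in the submitters' processing notes, 8.0.1 in file headers and methods) on mm39 and also deposited an index of mice and hashtags and the immunoglobulin contigs. The notes list Seurat 5.1.0. The Chromium 5′ kit was of either of 2 versions, not given per library.

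Members and lists were chosen with earlier results of these data known. HTODemux (Seurat 5.3.0, quantile 0.99) called hashtags, and a cell was kept if its hashtags matched 1 mouse exactly, if it had 200 or more genes and if mitochondrial UMIs made up less than 10%. The last step removed 350, 3114, 301 and 93 assigned cells from the larger, smaller, C and N libraries. No doublet caller was run beyond the hashtags, so doublets within a mouse remain. Of 9 mice listed for the sort, 7 were found. Phases came from Seurat's CellCycleScoring.

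Counts summed per mouse entered edgeR 4.0.16 (R 4.3.3) with its filter on low counts, TMM factors and an experiment term, or the mouse as block in the sort, where the authors' index gives the pairing. SE is the log2 change over the root of the quasi-likelihood F statistic. DESeq2 1.42.0 was an alternative. Exact permutation tests of counts per cell, taken as 1 value per mouse, used numpy 2.4.6, pandas 2.3.3 and Python 3.11.15. Sparse counts were held with scipy 1.17.1. All 10 members are named for treatment at 48 h, treatment at 72 h and C against N, and only some of them in the other comparisons. From each list up to 4 of the largest changes past the threshold are named. Within a library the mouse numbers mark separate animals, and in the sort the same number in C and N marks the same mouse. Time-course p-values are set against the spread between mice. Those of C against N are set against the spread of the differences within mice, and they hold no spread between libraries. The tests were checked on simulated data.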

Additional observations from a re-analysis of the deposited data

Results flagged for a closer look

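Of 70 groups of 4 to 7 mice looked at (members by condition and experiment), 2 held a mouse farther from the others than Dixon's 95% limit allows, where chance flags about 1 in 20 groups. H2-T22 in N was at 57.8 CPM in mouse M10 and at 66.5 to 71.2 in the other mice. Tap2 at 0 h in the larger experiment was at 144 CPM in mouse M06 and at 108 to 116 in the others. That mouse had 312 cells, the fewest UMIs of the larger experiment (1984426) and 68.3% of cells in G1.

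The treatment effect on Tap2 differed between 48 h and 72 h by -0.41 log2 (edgeR interaction contrast, adjusted p = 0.000202), 1 of 10 members called where 13.0% of all genes were called lower. It was not called without the experiment term (-0.38, adjusted p = 0.177) or in G1 cells (-0.01, adjusted p = 0.991), both by edgeR.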

How the results depend on the processing

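The alternatives by S or G2/M cells, total-count scaling and leaving out a mouse at 0 h were chosen after seeing the data. In G1 cells, genes called were 711 for treatment at 48 h (4843 in all cells), 466 for treated mice between the times (5019), 5 and 168 for untreated mice at 48 h and 72 h (13 and 451) and 266 for the difference of the effects (3217), with 0 and 4 members called at 48 h and in the last. Signs turned there for H2-K1 (0.13) and H2-D1 (0.17) at 48 h, for H2-K1 (-0.57), H2-D1 (-0.39), H2-T22 (-0.11) and Tapbp (-0.21) between treated groups and for B2m in C against N (0.20). In S cells the numbers were 1129 genes at 48 h, 403 (4 members) at 72 h, 2386 (5 members) between treated groups, 61 and 250 in untreated mice and 555 for the difference. In G2/M cells they were 1641, 317 (2 members), 2621, 0 and 130 (0 members), 985, and 4410 (4 members) for C against N (7596), where Tap1 (0.13) and Nlrc5 (0.43) turned. Fewer cells entered each of these fits.

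Without the experiment term, 2680 genes and 4 members were called at 48 h, 217 and 2 at 72 h, 3104 and 1 between treated groups, 5 genes and then 77 with 0 members in untreated mice, and 1222 with 0 members for the difference. In the smaller experiment alone the genes were 2149, 22 (0 members), 2661, 0, 3 (0 members) and 768 in that order. The larger alone gave 4 members at 72 h and 2 for the difference. With the compared groups alone, 5 members were called between treated groups and 256 genes in untreated mice at 72 h. Total-count scaling called 6 members between treated groups and 2 for the difference. It moved the median of all genes to 0.09 log2 in the former and to -0.07 in the latter. Cells with donor pairing gave 4 genes in untreated mice at 48 h and 1931 for the difference. DESeq2 called 25 genes and 1 member in untreated mice at 48 h and 2 members for the difference, no filter on low counts called 21 genes in the former and RLE normalization 2 members in the latter. Member counts given without a count of genes were not set against the share of all genes in the same fit. The cause of these moves was not tested.

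As medians over cells, the 72 h difference in heavy chain UMIs was -1.81 (no longer called) and that in total UMIs 983 (called). Scaled by hashtag means, hashtag differences were 0.0223 for treatment at 48 h and 0.0301 for untreated mice at 48 h against 0 h, neither called. Treated and untreated mice share no hashtag, so that this scaling removes their difference itself and the first value says nothing of stability. Untreated mice at 48 h and 0 h shared 4 hashtags in the larger and 0 in the smaller experiment. Part of their difference is therefore removed too, and the second value does not decide stability. Without the replicate block for mice in C against N, 7052 genes and 7 members were called, and no member's call changed. Leaving out each mouse in turn gave 7199 to 7566 genes and 7 to 8 members. No paired analysis was possible for the time course because each mouse gave 1 time point. Each group has 2 to 6 mice per experiment and C and N have 1 library each, which limits all of the above.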

Other observations

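Cells are assigned to mice through antibodies that bind CD45 and MHC-I, so cells with no positive hashtag were looked at as well. They were few after the filters, 107, 230, 332 and 37 in the larger, smaller, C and N libraries, and shallow, with medians of 2088, 1444.5, 1961 and 2846 UMIs against 8530, 6211, 10534 and 12885 in assigned cells. Their H2-K1 level was 484, 485, 356 and 488 CPM against 727, 542, 476 and 605 in assigned cells. B2m was at 648, 530, 356 and 501 CPM against 954, 869, 611 and 718. Nlrc5 lay the other way in all 4 libraries, at 109, 117, 85.8 and 130.003 CPM against 28.6, 47.2, 27.5 and 43.7. The sum of the 5 heavy chains was 1132, 1013, 806 and 1463 CPM against 1655, 1174, 1067 and 1424, lower in 3 libraries and higher in N, where H2-D1 was at 871 against 701. The donor pairing was found in 7.83% to 17.8% of them against 43.4% to 67.7% of assigned cells. These cells belong to no mouse, and the values carry no test.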
